A study of Rattus norvegicus with 12 samples.

Results

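In the retina of sham-operated rats, the transcripts that carried N6-methyladenosine (m6A) peaks were set against the expressed transcripts that carried none. The members were 4599 peaked genes, which had at least 1 m6A peak in each of the 3 sham peak lists, and they were compared with 4540 unpeaked genes, which had an FPKM of at least 1 in all 3 sham inputs and no peak in any sham list. FPKM is the number of sequenced fragments of a transcript scaled to its length and to the size of the library. The whole expression table held 22263 gene names. A further 2873 genes passed the same FPKM minimum and had a peak in 1 or 2 of the 3 lists, and they belonged to neither class. Another 150 gene names with peaks in all 3 lists matched no name in the expression table and were left out. Both classes rest on gene names. Of the unpeaked genes, 438 had a peak of another gene name inside their genomic extent. Another name in a sham list carried the gene ID of 146 unpeaked genes, and 447 had either. Of the peaked genes, 4501 had a peak inside their own extent in all 3 lists.

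All samples came from the sham group of a study of traumatic optic neuropathy in adult male Sprague-Dawley rats of 7 to 8 weeks, whose optic nerve was exposed but not clamped and whose retinas were taken at 12 h after surgery. Each of the 3 sham samples pooled the retinas of 4 rats and gave an m6A-immunoprecipitated library and an input library, 6 libraries of the 12 in the series. The peaks of a list were called from an immunoprecipitated library against its input, and FPKM was measured in the input. The clamped group was not used here. Since whole retinas were pooled, a transcript with a high level in a few cells cannot be told apart from one with a low level in many cells.

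m6A is a methyl mark that a nuclear methyltransferase complex built on METTL3 and METTL14 places on adenosines of messenger RNA. The demethylases FTO and ALKBH5 can remove it, and reader proteins of the YTH family bind it and influence the splicing, translation and decay of the transcript. In methylated RNA immunoprecipitation sequencing, fragmented RNA is enriched with an antibody against m6A, and a peak marks a stretch where the enriched library has more coverage than the input. A peak can therefore be called where the transcript is abundant enough to give coverage, and the absence of a peak does not show the absence of the mark.

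The 3 sham lists held 13854, 12822 and 13422 peaks in 6653, 6295 and 6108 genes. The inputs held an estimated 4053860 to 4727860 fragments each on the genes of the expression table, which is not their full sequencing depth. The depth of the immunoprecipitated libraries was unknown. Between 80.6% and 85.1% of the peaks of a list lay in the peaked genes. The lists were not filtered on the caller's false discovery rate, whose median was 30.8%, 44.1% and 93.0% of peaks in sham 1, 2 and 3, and 557, 6 and 2 peaks had a rate below 5%. The score of the caller, minus 10 times the log10 of p, was at least 50 in every list. A gene was counted as peaked only where peaks recurred over all 3 samples, but the rates of peaked genes remained high. The lowest rate of a peaked gene had a median of 21.1%, 27.4% and 61.8% in sham 1, 2 and 3. Only 441, 6 and 2 peaked genes had a peak with a rate below 5%. The defining genes of rods, the main cells of the rat retina, were abundant in every input, with a summed FPKM of 35219, 34854 and 36912 over 22 genes, and markers of other eye tissues differed among the samples. The summed FPKM of 16 lens genes was 7442, 4527 and 2981 in sham 1, 2 and 3, that of 9 genes of the ocular surface epithelium was 210, 29.7 and 15.5, and that of 10 genes of the pigment epithelium was 393, 460 and 791. Only 8 of 12 microglial genes passed the FPKM minimum, and their levels were low, with a summed FPKM of 47.9, 35.1 and 47.6 over the whole list.

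Among the 11819 expressed genes, that is those with an FPKM of at least 1 in all 3 sham inputs, 4406 were peaked (37.3%) and 4540 were unpeaked (38.4%). The remaining 193 peaked genes were below the minimum in at least 1 input, and 35 of them were listed at 0 in all 3. A peak recurred well between samples. Of the genes with a peak in both other samples, 91.6%, 90.9% and 87.5% had a peak in sham 1, 2 and 3, against 12.8%, 7.08% and 7.53% of the genes with no peak in either other sample and an FPKM of at least 1 in both of their inputs. The difference was 80.8 ± 2.64 percentage points (SD, n = 3) and had the same direction in 3 of 3 samples. By a two-sided exact sign permutation test over the samples p was 0.25, the smallest p that 3 samples allow. Each of the 3 values draws on all 3 samples, so that they are not independent and their SD is not a spread between animals. The comparison describes how far the lists that define the classes recur, and is no separate evidence for the classes. In 4171 peaked genes (90.7%) peaks of all 3 lists covered the same stretch by at least 1 base, and in 3964 (86.2%) by at least 100 bases. At the FPKM minimum, the 6 unpeaked genes nearest above it had a lowest FPKM of 1.00 to 1.01, and the 6 genes without peaks nearest below it had 0.994 to 0.998.

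The median peaked gene was more abundant than the median unpeaked gene, while the most abundant genes were largely unpeaked. The median FPKM in sham 1, 2 and 3 was 19.4, 19.7 and 19.3 in peaked genes, against 11.9, 10.9 and 11.7 in unpeaked genes. The class medians did not overlap between samples, but the genes overlapped broadly. The middle 80% of peaked genes ran from 5.04 to 66.6 in mean FPKM and that of unpeaked genes from 2.51 to 77.6. In a comparison that set the classes by 2 samples and read the level in the third, the difference of the class medians was 0.73 ± 0.11 on the log2(FPKM + 1) scale (SD, n = 3), positive in 3 of 3 samples, with p = 0.25 by the two-sided exact sign permutation test, the smallest possible. These 3 values again share samples and are not independent. Between inputs the levels of expressed genes correlated at 0.96 to 0.97 on a log2 scale. The level in the third sample was therefore nearly set by the inputs that the rule used. The difference is a description, and no conclusion was drawn from its p-value. The rule sets an FPKM minimum for the unpeaked genes and none for the peaked ones, and the difference depended on it. With no minimum the difference was 4.21, and with scaled fragments in place of FPKM it was 1.29. With a minimum of 5 for the unpeaked genes it turned to -0.10, and with a minimum of 5 for both classes, a setting chosen after seeing the data, it was 0.15. The mean FPKM went the other way from the median, at 33.8, 34.4 and 34.8 in peaked genes and 61.9, 62.1 and 63.3 in unpeaked genes. Peaked genes accounted for 29.3% to 29.8% of the summed FPKM of an input and unpeaked genes for 53.0% to 53.1%. Without the mitochondrially encoded genes the mean FPKM of unpeaked genes was 42.4, 41.0 and 43.3, still above that of peaked genes. The shares of summed FPKM were then 35.2% to 36.4% in peaked genes and 42.7% to 43.5% in unpeaked genes. By scaled fragments, which are not divided by transcript length, the order was the opposite. With the mitochondrially encoded genes kept, the shares were 42.7% to 43.6% in peaked genes and 37.4% to 38.2% in unpeaked genes. Without them the shares were 45.4% to 46.6% and 33.1% to 34.1%.

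The share of peaked genes did not rise steadily with level. It was 4.76% among expressed genes below a mean FPKM of 2, 16.8% between 2 and 5, 32.8% between 5 and 10, and 41.3% between 10 and 20. The share was highest between 20 and 50 (47.5% of 3145 genes) and between 50 and 100 (47.1% of 1125 genes). Above that it fell to 38.8% between 100 and 200 and 24.5% of the 277 genes at 200 or more, where 59.2% were unpeaked. Each sham list showed the same shape by itself, with 33.2%, 33.9% and 30.3% of the most abundant genes holding a peak in sham 1, 2 and 3, against 62.1%, 58.4% and 58.7% between 20 and 50. Of the 100 most abundant genes, 13 were peaked, 17 had a peak in 1 or 2 lists and 70 were unpeaked. The mitochondrial genome held no peak in any list, and without its 13 genes the numbers were 16, 18 and 66.

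**Figure D1:**
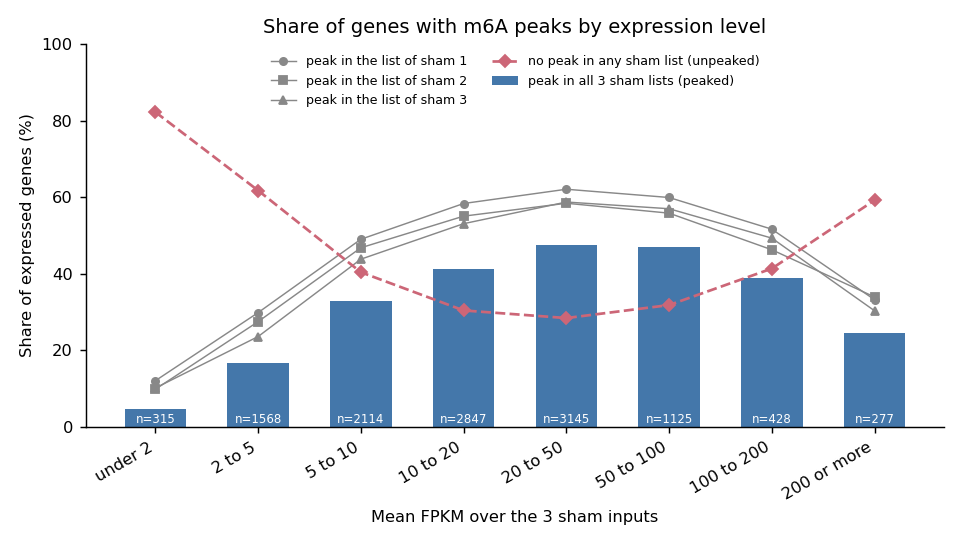
Share of the 11819 expressed genes (%) by mean FPKM over the 3 sham inputs. Bars show genes with a peak in all 3 sham lists, grey lines genes with a peak in the list of each sham sample, and the dashed line genes with no peak in any. The bars are highest between FPKM 20 and 100 and fall to 24.5% at 200 or more, while the dashed line is lowest, at 28.4%, between 20 and 50.

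Transcript length moved with the class as well. The number of scaled fragments per FPKM, which rises with the length of a transcript, had a median of 10.3 in peaked genes that passed the FPKM minimum, against 7.14 in unpeaked genes, and the genomic extent had a median of 33275 bases in peaked genes, against 17164 in unpeaked genes. The share of peaked genes was 26.0% in the fifth of expressed genes with the shortest transcripts and 51.6% in the fifth with the longest. Within genes of FPKM 20 to 100 it was 32.2% for the shortest and 65.2% for the longest, and at FPKM of 100 or more it was 26.5% for the shortest and 47.1% for the longest. The decline at the highest levels was thus present in each length group when genes at 100 or more were set against those at 20 to 100. Longer transcripts also give more fragments at the same FPKM, so that length and the coverage available to the caller cannot be told apart. By scaled fragments alone, the share of peaked genes was 11.7% below 10 fragments, 55.2% between 500 and 1000 and 51.7% at 1000 or more. Expression was also steadier between samples in peaked genes, with a median SD of log2(FPKM + 1) over the 3 inputs of 0.15 in peaked genes that passed the minimum and 0.22 in unpeaked genes. At matched fragment numbers this did not hold throughout. In each range between 20 and 500 fragments peaked genes had the lower median, with 0.13 against 0.14 between 200 and 500. Below 20 and at 500 or more the order was the opposite, with 0.50 in peaked and 0.43 in unpeaked genes below 10. At 1000 or more the medians were 0.103 and 0.099.

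**Figure D2:**
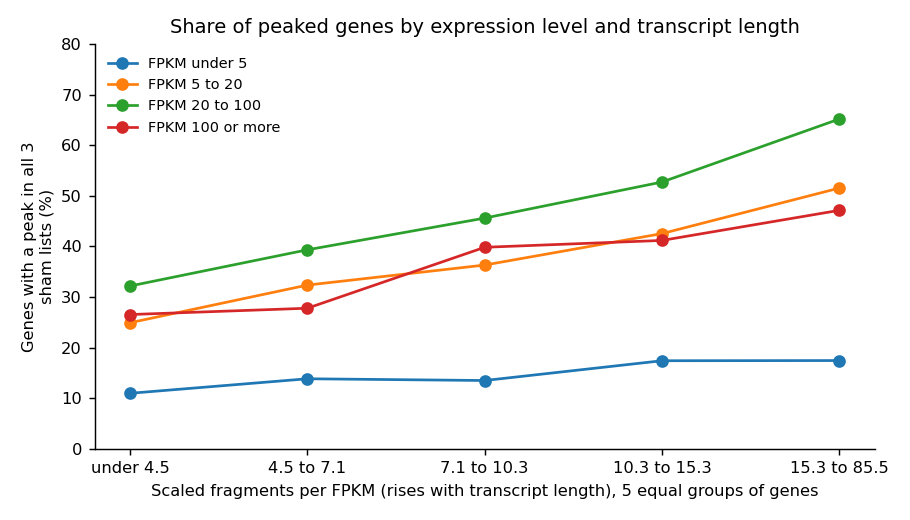
Share of genes with a peak in all 3 sham lists (%) by scaled fragments per FPKM in 5 groups of equal size, from short to long transcripts, with a line for each range of mean FPKM over the 3 sham inputs. Each line is higher for the longest than for the shortest transcripts, and the line for FPKM 20 to 100 reaches 65.2%.

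The most abundant peaked gene was Gngt1, the gamma subunit of rod transducin, with an FPKM of 3561, 3542 and 4517 in sham 1, 2 and 3. Its single peak in every list covered chr4:28882953-28883215, in the coordinates of the deposited files, and ended at the annotated 3′ end of the gene. The fold enrichment of this peak was 27.4, 45.3 and 32.9, and its score was 3100 in every list. Rps29, a ribosomal protein, followed with 3088, 2502 and 3745, but its name belonged to 4 entries of the expression table and its peak did not lie inside the abundant one, so that its class is uncertain. The lens crystallin Crybb2 had 1499, 1068 and 681, and was highest in sham 1 and lowest in sham 3, as was the summed level of the lens list. Below these stood Pcp4, a calmodulin-binding peptide of neurons (782, 719 and 860), Aipl1, a chaperone that photoreceptors need for their phosphodiesterase (653, 691 and 770), and Snap25, a membrane fusion protein of synaptic terminals (529, 525 and 498). The others among the 12 most abundant peaked genes were Rpl26, Zwint, Rps23, Rpl35, Gnas and Dkk3, with mean FPKM between 506 and 649. The name Gnas belonged to 2 entries and its peak lay outside the abundant one, so that its class is uncertain too.

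The most abundant unpeaked genes reached higher levels. They were led by Mt-co1, a mitochondrially encoded subunit of cytochrome c oxidase, at 16563, 18660 and 17992, and 10 of the 12 most abundant ones were mitochondrially encoded. Nuclear genes among them included Gnat1, the alpha subunit of rod transducin, at 3727, 3974 and 3713. The alpha and gamma subunits of the same G protein were at like levels, with a mean of 3873 in Gngt1 and 3805 in Gnat1, and were on opposite sides of the classes.

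Rod genes were mostly unpeaked. Of 21 expressed genes of rod phototransduction, 2 were peaked and 19 were unpeaked, a share of 9.52% peaked against the background of 37.3%. Genes of the same FPKM ranges were peaked in 28.7% and genes of the same fragment numbers in 51.3%. The second peaked member beside Gngt1 was Cngb1, the beta subunit of the rod cyclic nucleotide-gated channel, at 119, 117 and 115 FPKM, with 3, 2 and 4 peaks and a highest fold enrichment of 40.4, 33.0 and 33.9. Unpeaked members beside Gnat1 included Pdc, the phosducin that binds transducin subunits, at 2470, 2681 and 3272, and Sag, the rod arrestin, at 2753, 2250 and 2616. The least abundant unpeaked member, the kinase Grk1, had 88.8, 75.2 and 61.1, so that none was near the FPKM minimum.

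Genes of photoreceptor identity and of the outer segment were peaked in 5 of 22, in 1 or 2 lists in 2, and unpeaked in 15, with a share of 22.7% against 31.6% for genes of the same FPKM ranges. Peaked members were Aipl1, Tulp1, a protein of photoreceptor transport, at 420, 353 and 368, Neurod1, a transcription factor, at 216, 243 and 213, and Impg1, a component of the matrix between photoreceptors, at 151, 171 and 156. The peak of Tulp1 covered chr20:10132031-10132497 in every list at the 3′ end of the gene, with a fold enrichment of 13.6, 15.3 and 15.6. Unpeaked members included Prph2 (2363, 2147 and 2466) and Rom1 (1013, 955 and 1036), a pair of tetraspanins that shape the outer segment disc, and Nrl, the transcription factor that specifies rods, at 586, 604 and 663. Unc119, a lipid-binding transport protein, was unpeaked at 746, 725 and 872. Both lists stayed below the background when weak peaks were dropped, when a shared stretch was required and when any sample was left out.

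**Figure D3:**
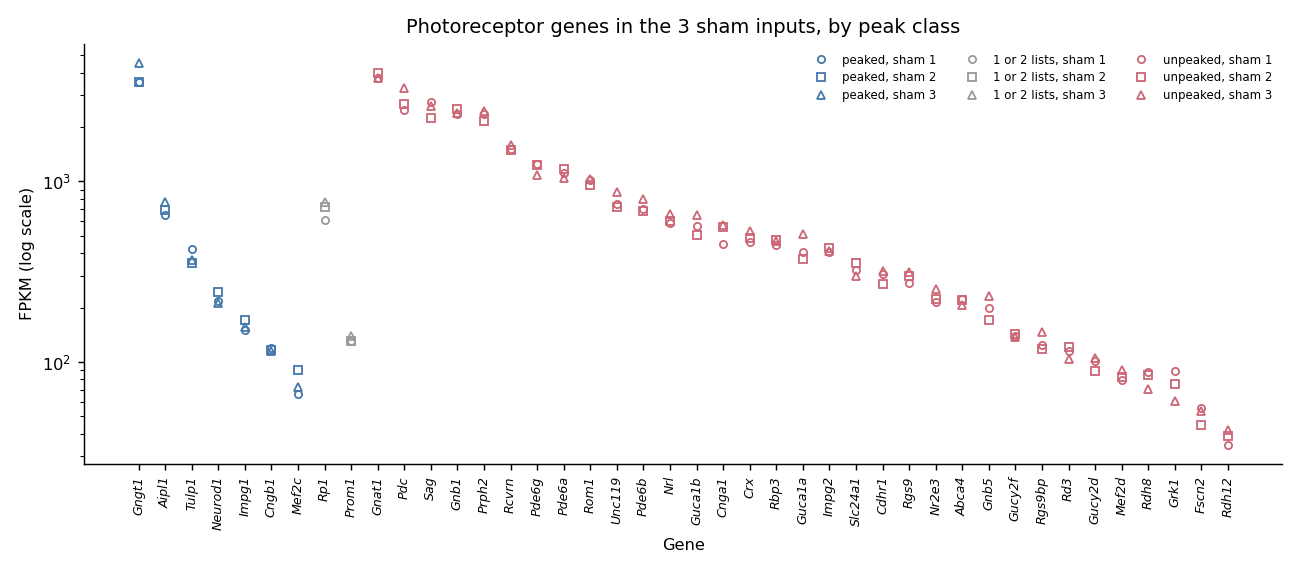
FPKM on a log scale in sham 1, 2 and 3 of expressed genes in the lists of rod phototransduction and of photoreceptor identity and outer segment, by peak class. The 7 peaked genes stand on the left, the 2 genes with a peak in 1 or 2 lists in the middle and the unpeaked genes on the right, and the levels of peaked and unpeaked genes overlap.

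Ganglion cell genes were peaked more often than the background, although the list was short. Of 15 expressed ganglion cell genes, 8 were peaked, 4 had a peak in 1 or 2 lists and 3 were unpeaked (53.3% peaked, against 37.2% in genes of the same FPKM ranges). Sncg, a synuclein, had 214, 231 and 299 FPKM, and Nefl, the light neurofilament chain, had 82.3, 106 and 119. Nefh, the heavy chain, had 28.7, 34.2 and 35.7 with 4 peaks in every list. Unpeaked ganglion cell genes were Thy1, a surface glycoprotein, at 98.6, 93.1 and 89.2, Rbpms, an RNA-binding protein, at 22.8, 18.3 and 4.61, and Pou4f3, a transcription factor, at 1.16, 1.89 and 2.17. Bipolar genes were peaked in 7 of 14 (50.0%), but in 21.4% when only peaks with a score of at least 100 counted, against a background of 28.8% under that setting. The peaked ones included Trpm1, the cation channel of the light response in ON bipolar cells, at 139, 153 and 150, while its receptor Grm6 was unpeaked at 28.9, 30.1 and 22.5. Pcp2 was unpeaked at 419, 438 and 420, but a peak listed under another gene name lay inside its extent. Amacrine and horizontal cell genes were peaked in 6 of 15 (40.0%), near the background, and changed side of it under 3 of 6 other settings. Calb2, a calcium-binding protein, had 186, 175 and 197 FPKM and 6, 6 and 7 peaks.

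Of 14 genes of Muller glia, 5 were peaked, 7 had a peak in 1 or 2 lists and 2 were unpeaked. Their share of 35.7% was near the background and changed side of it under each of 6 other settings. Dkk3, a secreted protein, was peaked at 508, 502 and 507, with a peak at the 5′ end of the gene (chr1:183961577-183961812) whose fold enrichment was 15.9, 15.0 and 16.0. Glul, glutamine synthetase, was the most abundant member of this list and was unpeaked at 1069, 1180 and 1229. Cone genes were peaked in 3 of 10, against a background of 37.3%, and without sham 1 in 50.0%, above the background of 40.2% under that setting. Peaked cone genes included Gnat2, the cone transducin, at 69.9, 61.2 and 74.7, and the 4 unpeaked ones included the phosphodiesterase subunit Pde6h at 99.8, 86.7 and 105. All 8 expressed microglial genes were unpeaked, at mean levels of 2.02 to 7.04 FPKM, and all expressed genes with their fragment numbers were peaked in 18.9%. The part of depth in this was not tested.

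Genes of tissues next to the retina showed peaks as well. Of 16 lens genes, 3 were peaked (18.8%, against a background of 37.3%), among them Crybb2, and without sham 3 the share was 31.2%, against 41.6% of all expressed genes. The 9 unpeaked lens genes included Cryaa, an alpha crystallin, at 2764, 1650 and 979. Of 4 expressed genes of the ocular surface epithelium, 3 had a peak in sham 1, 1 in sham 2 and 0 in sham 3, in the order of the summed FPKM of their list given above. Of 9 expressed pigment epithelium genes 3 were peaked (33.3%), with Ttr, transthyretin, at 264, 331 and 523. The part of other tissues in the classes was not tested.

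**Figure D4:**
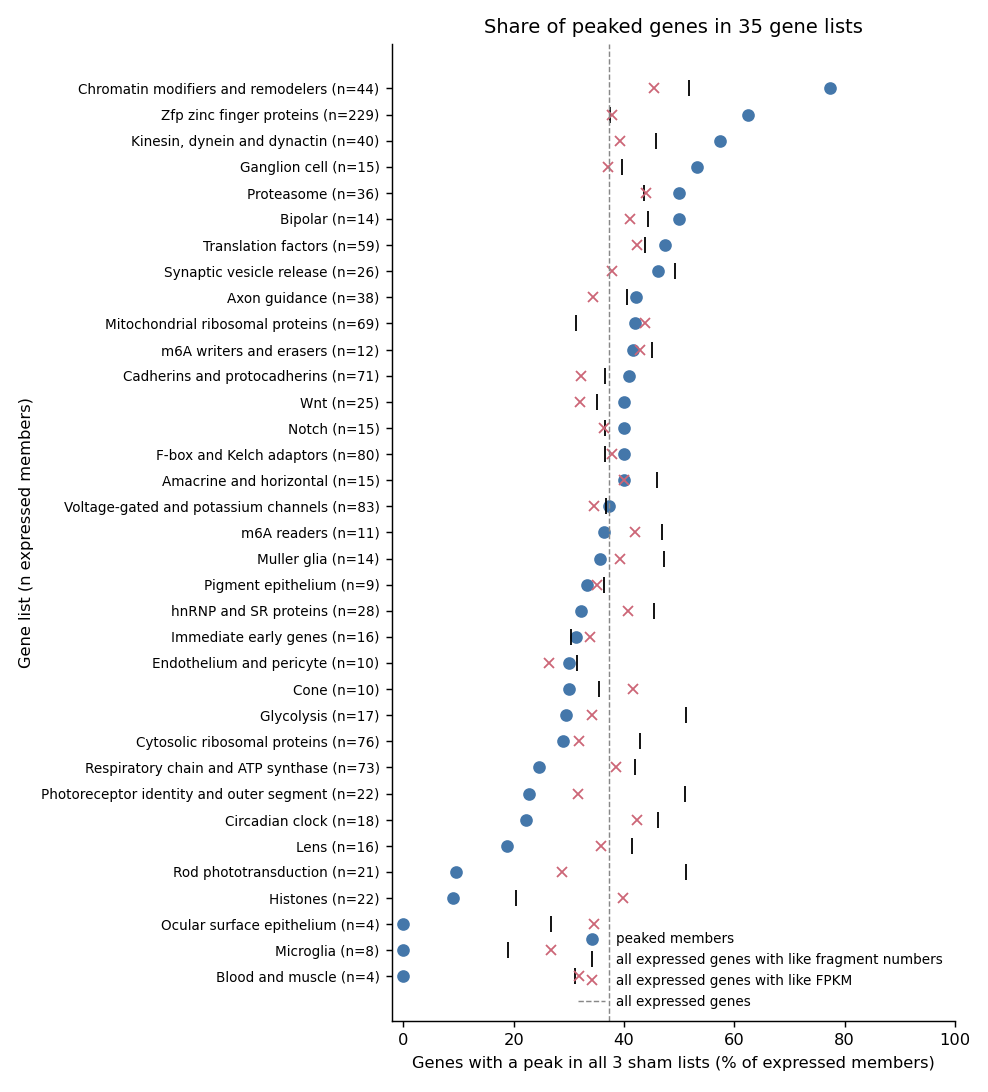
Percent of the expressed members of 35 gene lists that had a peak in all 3 sham lists (points), with the share among all expressed genes (dashed line, 37.3%) and the shares expected from all expressed genes with the same fragment numbers (bars) and the same FPKM (crosses). Chromatin modifiers stand highest, at 77.3%, and rod phototransduction and histones are among the lowest, at 9.52% and 9.09%.

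Of the 35 lists, those of chromatin modifiers and of Zfp zinc finger genes had the highest shares of peaked genes. Of 44 expressed chromatin modifiers and remodelers, 34 were peaked, 6 had a peak in 1 or 2 lists and 4 were unpeaked, a share of 77.3%. In genes of the same fragment numbers the share was 51.9%, and in genes of like length 49.6%. Kdm5c, a histone demethylase, had 178, 154 and 136 FPKM, and Ncor1, a corepressor, had 159, 153 and 135 with 9, 7 and 13 peaks. Ash1l, a histone methyltransferase, had 102, 111 and 103 with 11, 9 and 10 peaks. The unpeaked members were Kmt2e, a protein of the histone methyltransferase family, at 260, 293 and 280, Tet3, a dioxygenase that oxidises methylated cytosine, at 129, 149 and 139, Arid2, a subunit of a nucleosome remodeler, at 85.2, 79.9 and 51.4, and Kmt2b, at 20.4, 16.3 and 17.1. Kmt2e was the most abundant member of the list.

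The Zfp genes, a large set of zinc finger proteins, many of which bind DNA, were peaked in 143 of 229 (62.4%), had a peak in 1 or 2 lists in 52 and were unpeaked in 34. Genes of the same fragment numbers were peaked in 37.6%. Their median FPKM was 13.6, below that of all expressed genes (16.1). Zfp106 had 124, 150 and 136 FPKM with 4, 5 and 5 peaks, whereas Zfp385a, the most abundant unpeaked one, had 307, 341 and 283. Zinc finger genes resemble each other in sequence, and the treatment of reads that fit several copies was not stated.

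Motor proteins and their partners came next. Of 40 kinesin, dynein and dynactin genes 23 were peaked (57.5%) and 4 unpeaked, with Kif1b, an axonal kinesin, at 255, 274 and 233 and unpeaked Dctn1, the large dynactin subunit, at 148, 163 and 157. Synaptic vesicle release genes were peaked in 12 of 26 (46.2%) and divided within one machine. Snap25 was peaked, and its fold enrichment was 9.56, 9.41 and 9.62. Its partner Vamp2 was unpeaked at 368, 401 and 385, as were Syp, a vesicle membrane protein, at 452, 485 and 469 and Cplx4, the complexin of photoreceptor terminals, at 786, 946 and 883. Axon guidance genes (16 of 38 peaked), cadherins and protocadherins (29 of 71), ion channels (31 of 83), Wnt genes (10 of 25), Notch genes (6 of 15) and F-box and Kelch adaptors (32 of 80) were peaked in 37.3% to 42.1%, near the background of 37.3%. Of these 6 lists, axon guidance and the cadherins stayed on the same side of the background under all 6 other settings.

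The housekeeping lists ranged around the background. Translation factors were peaked in 28 of 59 (47.5%) and proteasome subunits in 18 of 36 (50.0%), against 43.9% and 43.7% for genes of the same fragment numbers. Mitochondrial ribosomal proteins were peaked in 29 of 69 (42.0%), against 31.2% for genes of the same fragment numbers. Genes of the same FPKM ranges were peaked in 43.8% and genes of like length in 27.9%. With only the top 50% of peaks in each list, this share was below the background, at 15.9% against 21.2%. Lower shares were found for cytosolic ribosomal proteins (22 of 76, 28.9%), glycolytic enzymes (5 of 17, 29.4%) and nuclear-encoded subunits of the respiratory chain and ATP synthase (18 of 73, 24.7%), against 42.9%, 51.3% and 42.1% for genes of the same fragment numbers. Genes of the same FPKM ranges were peaked in 31.8%, 34.2% and 38.6%, and genes of like length in 26.2%, 35.8% and 27.5%. With the top 50% of peaks the share of cytosolic ribosomal proteins was above the background, at 25.0% against 21.2%. At a score of at least 100 it was level with the background, at 28.9% against 28.8%. Glycolysis held some of the most abundant unpeaked genes, with Gapdh at 930, 941 and 872 and Pkm, pyruvate kinase, at 759, 875 and 880, while Pgk1, phosphoglycerate kinase, was peaked at 268, 258 and 277. Eef1a1, the elongation factor that brings aminoacyl-tRNA to the ribosome, was unpeaked at 933, 723 and 931, whereas its neuronal and muscle paralog Eef1a2 was peaked at 125, 142 and 134. Ribosomal proteins and these factors have many processed copies, so that their peak assignments are uncertain. Histones were peaked in 2 of 22 expressed genes, with a median of 15.4 scaled fragments over the list, and genes of the same fragment numbers were peaked in 20.4%.

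Circadian clock genes were peaked in 4 of 18 (22.2%), had a peak in 1 or 2 lists in 8 and were unpeaked in 6, against 46.1% for genes of the same fragment numbers. The 4 peaked genes were the repressors Bhlhe41 (30.9, 45.9 and 42.2), Bhlhe40 (20.3, 27.7 and 29.2), Nfil3 (7.08, 9.63 and 11.1) and Per2 (6.97, 6.52 and 8.35). The output factor Dbp was unpeaked at 131, 136 and 128. The median of the mean FPKM was 17.5 over the 4 peaked genes and 69.5 over the 6 unpeaked genes. The 4 most abundant unpeaked genes were Dbp, Hlf, Nr1d1 and Cry2, of which Nr1d1 held a peak of another gene name inside its extent. Immediate early genes were peaked in 5 of 16 (31.2%), against 30.4% for genes of the same fragment numbers, with Jun at 33.5, 41.2 and 20.5, and Egr1 was unpeaked at 12.9, 8.97 and 16.7.

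The transcripts of the m6A machinery themselves were on both sides. Of 12 expressed writers and erasers, 5 were peaked, 3 had a peak in 1 or 2 lists and 4 were unpeaked. The share of 41.7% peaked was near the background of 37.3%. Genes of the same fragment numbers were peaked in 45.1% and genes of the same FPKM ranges in 42.8%. The peaked ones were all parts of the methyltransferase complex. Zc3h13, a scaffold of the complex, had 47.1, 51.4 and 47.8 FPKM and 10, 11 and 11 peaks, with a highest fold enrichment of 40.4, 43.0 and 42.3. RGD1559904, which is Virma by its gene ID, had 16.9, 18.0 and 17.2 with 10, 6 and 6 peaks. Wtap, a regulatory subunit, had 56.7, 59.5 and 59.3, Rbm15, an RNA-binding adaptor, had 45.0, 41.5 and 36.6, and Mettl14, the RNA-binding partner of the catalytic subunit, had 18.1, 18.8 and 21.5. The catalytic subunit Mettl3 had a peak in sham 1 and 2 but not in sham 3, at 29.0, 26.7 and 24.4 FPKM. Of the erasers, Fto had a peak in sham 1 alone, at 35.7, 37.7 and 38.7, and Alkbh5 was unpeaked at 48.3, 58.8 and 52.4. Cbll1, a ubiquitin ligase of the complex, had a peak in sham 3 alone, and Rbm15b, Zcchc4 and Mettl5 were unpeaked, the last with a peak of another gene name inside its extent. Mettl16 was below the FPKM minimum.

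Among 11 expressed readers, 4 were peaked (36.4%, near the background of 37.3%), and all 4 were YTH proteins. Ythdc1, the nuclear reader, had 51.5, 60.5 and 54.4 FPKM with 7, 6 and 6 peaks and a highest fold enrichment of 26.8, 31.9 and 34.5. The cytoplasmic readers Ythdf1 (27.6, 29.9 and 23.3), Ythdf2 (36.5, 40.7 and 41.1) and Ythdf3 (50.6, 55.3 and 46.3) held 1 or 2 peaks in each list. Their relative Ythdc2, an RNA helicase, had peaks in sham 3 alone at 6.69, 4.87 and 6.87 FPKM. Igf2bp2, Fmr1 and Elavl1 had a peak in 1 or 2 lists, and Hnrnpa2b1 (288, 318 and 278), Prrc2a (83.1, 81.3 and 71.5) and Hnrnpc (10.5, 8.93 and 6.27) were unpeaked. Igf2bp1 and Igf2bp3 were below the FPKM minimum. In the family of hnRNP and SR splicing proteins, 9 of 28 were peaked (32.1%, against a background of 37.3%). Hnrnpm held 7, 7 and 9 peaks with a fold enrichment of up to 57.0, 93.7 and 64.3, and Hnrnpk, whose name belonged to 2 entries, reached 52.1, 58.0 and 66.3.

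Peaked genes held a median of 2 peaks in each list, and 40.6%, 44.1% and 42.7% of them held 1 peak in sham 1, 2 and 3. The largest numbers were found in genes whose genomic extent was above the median of peaked genes. Dst, which encodes the cytoskeletal linker dystonin, held 36, 33 and 37 peaks at 94.2, 86.5 and 77.8 FPKM, and Akap9, a scaffold of the centrosome and Golgi, held 25, 27 and 27. DMD, the dystrophin gene as the files spell it, held 21, 18 and 21 peaks, and the nuclear pore protein Tpr held 17, 21 and 19. Macf1, Kif21a, Ktn1, Cgnl1, Sptbn1 and Cep350 completed the 10 genes with the most peaks. Across the 4406 expressed peaked genes, Spearman's correlation between the number of peaks and the scaled fragments per FPKM was 0.28, 0.22 and 0.24 in sham 1, 2 and 3, and that between the number of peaks and mean FPKM was 0.26, 0.23 and 0.24. These are descriptions across genes, which share libraries and depth and are not independent replicates.

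The strength of the peaks was weakly related to level. The highest fold enrichment of a peaked gene had a median of 9.02, 9.47 and 9.21 in sham 1, 2 and 3, and 10% of genes exceeded 17.6, 20.1 and 20.3. Its Spearman's correlation with mean FPKM across the same 4406 genes was 0.14, 0.15 and 0.19, while the correlation between 2 samples was 0.73 for sham 1 and 2, 0.70 for sham 1 and 3, and 0.77 for sham 2 and 3. Fold enrichment was thus more alike between samples than it was tied to expression.

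Peaks were gathered at the ends of the genes. Over the peaks whose midpoint lay in the genomic extent of their peaked gene, 20.5%, 19.6% and 19.6% were in the 10% of the extent next to the 5′ end in sham 1, 2 and 3, and 19.4%, 20.6% and 18.7% were in the 10% next to the 3′ end. Each of the other segments of 10% held between 5.69% and 10.4%, least near the 5′ end and most near the 3′ end. Peaks at the annotated 5′ end itself made up 14.9% to 15.5% and those at the 3′ end 10.3% to 13.2%. The extent includes introns, so that these segments are not those of the mature transcript. The median fold enrichment was 7.44, 7.89 and 7.89 in the segment at the 5′ end, 6.73, 7.31 and 7.06 in the middle and 7.09, 7.70 and 7.22 in the segment at the 3′ end. The share of peaked genes by chromosome ran between 32.1% of expressed genes on chromosome 7 and 44.2% on chromosome 17.

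**Figure D5:**
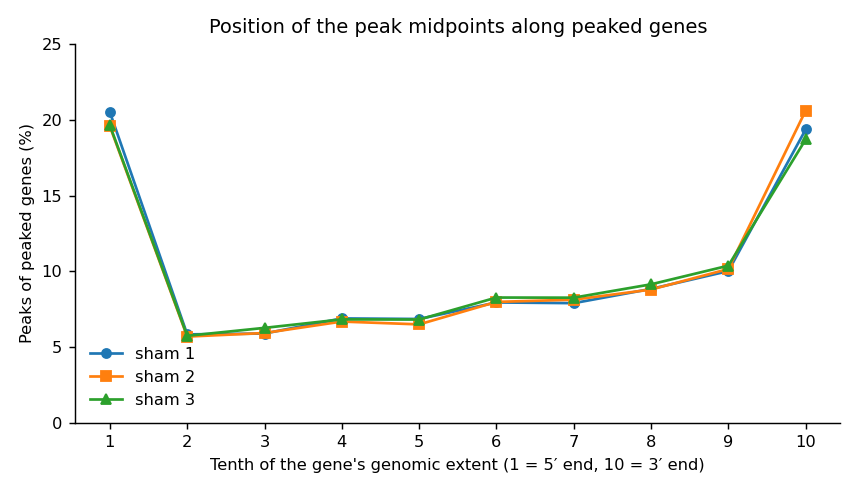
Percent of the peaks of peaked genes by position of the peak midpoint in 10 equal segments of the genomic extent, from the 5′ end to the 3′ end, with a line for each sham sample. The first and the last segment hold 18.7% to 20.6% each, and the 3 samples follow each other closely.

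At the low end, 118 peaked genes had a mean below 1 FPKM. Zfp647, a zinc finger protein, was listed at 0 in all 3 inputs and had a peak of fold enrichment 4.74, 4.25 and 4.17 inside its extent. Tspan4, a tetraspanin, was listed at 0 too and had a peak of up to 8.50, 16.7 and 5.51 that did not lie inside its extent in the expression table. Vom2r12, a vomeronasal receptor name, had a peak of 4.50, 6.57 and 6.70 that also lay elsewhere. RGD1563482, AABR06067149.1 and AABR06051932.1 held peaks inside their extents in all 3 lists at a listed level of 0. These 6 are an arbitrary choice among the 35 genes listed at 0. A listed 0 can be a failed estimate, and these levels were not read as absence of the transcript.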

How the data were processed

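The data were the 3 sham samples of a rat retina study, each with an m6A-immunoprecipitated library and an input library. The authors trimmed reads with cutadapt 1.9.3, aligned them with HISAT2 2.0.4 and computed FPKM per gene of the inputs with Cufflinks tools, and deposited these FPKM values with scaled fragment values, a signal per gene. The authors called peaks per sample with MACS against the matched input and deposited, for each peak, its fold enrichment over the input, a score derived from the caller's p-value and, as a percent, its estimated false discovery rate. The rat genome build was not given in the sources used here, and the methods name a human build, so no sequence was read. Names were checked against the GRCr8 table, and Virma was matched as RGD1559904 by its gene ID. The 3 TON peak lists and 6 TON columns were not used.

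The peak lists were joined to the expression table by gene name, taking the most abundant entry of a name with several rows. Levels were compared on the log2(FPKM + 1) scale with exact sign permutation tests over the 3 samples, which were separate pools of animals, in which the compared sample did not set the classes. The inputs were closely alike, so that these comparisons are not independent of the rule and serve as description. The procedure was tested on simulated data that had no FPKM minimum and peaks drawn at rates that did not depend on coverage. The simulation therefore does not cover the effect of the FPKM minimum on the level difference. The gene lists were described by counts and shares beside all expressed genes and beside genes of the same fragment, FPKM or length range. Fragments were estimated from the steps of the low scaled values, of which 98.1% to 98.4% were whole within 0.05. The classes and gene lists were chosen with earlier results of these data known. Named genes were the 12 most abundant peaked and unpeaked genes, the 10 with most peaks, the 6 lowest peaked genes, up to 4 most abundant peaked and unpeaked members of each of 35 lists, and all m6A writers, erasers and readers. Grk1, and the statements on mitochondrially encoded genes, were chosen after their values were seen. Alternatives were other peak filters, overlaps, FPKM minimums, units, joins and the leaving out of each sample. Python 3.11.15, pandas 2.3.3, NumPy 2.4.6 and SciPy 1.17.1 were used. Results for some single genes are not reported here.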

Additional observations from a re-analysis of the deposited data

Results flagged for a closer look

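The peak lists held a signal that the join by name did not set against expression: 150 gene names had a peak in all 3 sham lists but matched no name in the expression table, beside the 4599 that did. These names were left out of both classes. In an unplanned setting, genes were joined also by gene ID. This gave 4716 peaked and 4394 unpeaked genes, with median FPKM of 19.4 and 11.3. How many of the 150 names it matched was not counted.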

How the results depend on the processing

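The main values were 4599 peaked and 4540 unpeaked genes, median FPKM of 19.5 and 11.5, 37.3% of expressed genes peaked, a level difference of 0.73 (log2) and a peak share difference of 80.8 percentage points. With a score of at least 100 the medians were 21.5 in peaked and 12.1 in unpeaked genes and 28.8% were peaked. With the top 50% of each list there were 2607 peaked and 7033 unpeaked genes, with medians of 23.6 and 12.6 and 21.2% peaked. Equal list sizes gave a peaked median of 19.7, and a fold enrichment of at least 5 gave 20.7, an unpeaked median of 12.0 and 31.2% peaked. A shared stretch of at least 1 base gave a peaked median of 19.7 and 33.8% peaked, and one of 100 bases 32.2% peaked. A peak in at least 2 lists gave a median of 18.2 and 49.5% peaked, and it allows no comparison with a sample left aside. With no FPKM minimum there were 14534 unpeaked genes with a median of 0.029, and with a minimum of 5 there were 2936 with a median of 21.7, where the level difference turned to -0.10. A minimum of 1 for both classes gave a peaked median of 20.6, and scaled fragments in place of FPKM gave 192 in peaked and 76.0 in unpeaked genes. Chosen after seeing the data, a minimum of 5 for both classes gave medians of 23.5 in peaked and 21.7 in the 2936 unpeaked genes. The cause of the changes under the filters on peaks and FPKM was not tested. Leaving out 1 sample gave peaked medians of 18.6 to 19.2, unpeaked medians of 10.8 to 11.5, and 40.2% to 41.6% peaked. The level difference kept its direction under the other 18 settings, between 0.15 with a minimum of 5 for both classes and 4.21 with no minimum, and was 1.29 with scaled fragments. Of the 35 gene lists, 20 stayed on the same side of the background under all 6 settings run for lists. No paired analysis was possible because each value was already computed within a sample. The pseudocount bears only on the level difference. The exact sign permutation test cannot give a p below 0.25 with 3 samples.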
